A study of Arabidopsis thaliana with 2 samples.

Results

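The pericentromere of chromosome 2 of Arabidopsis thaliana was taken as the 10 kb bins of that chromosome whose midpoints lie from 1.6 to 5.6 Mb, which is 2 Mb on either side of an approximate centromere position of 3.6 Mb. This choice by position alone gave 400 of the 11916 nuclear bins, and 30 of them, from 3.2 to 3.5 Mb, form a window around an insertion of mitochondrial DNA that is described apart. Each genotype is represented by 1 library, wild type or chr5 mutant, and both come from untreated leaves of plants kept on plates at 22 °C. Chromatin was digested with micrococcal nuclease (MNase), which cuts DNA that is not wrapped on nucleosomes or otherwise protected, and the surviving DNA was sequenced. The allele, the plant age, the number of plants pooled and the accession of the wild type are not stated in the labels. CHR5 is a SNF2-family chromatin remodeller of the CHD1 type, and the question of the comparison is whether protected DNA is spread differently in its mutant.

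Pericentromeres flank the centromeric satellite repeats and are rich in transposable elements, poor in active genes and packed as heterochromatin, with dense DNA methylation and the repressive histone mark H3K9 dimethylation. The pericentromere of chromosome 2 also carries a nuclear copy of much of the mitochondrial genome in the reference accession, a known example of organelle DNA transferred to the nucleus. The copy is nearly identical to the organelle's own DNA, and in the plant it is known to be longer than in the reference assembly. A short read from it can therefore match the chromosome, the mitochondrial genome or several places within the insertion equally well, and the treatment of such reads is not stated in the labels.

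Over the 5 nuclear chromosomes there were 99392770 wild-type counts and 102412872 mutant counts, and each library was scaled to its sum. Scaled counts are given per 1000000 nuclear counts. Ratios are log2 of mutant over wild type with a pseudocount of 1, and folds of single bins or of summed counts come from the counts themselves with exact 95% intervals that cover counting error only. Ratios were taken only where the scaled count, averaged over both libraries, reached 0.25 times the nuclear median. This removed 13 of the 400 bins, all of them in the insertion, and left 387. No bin of the 400 was at 0 in either library. A 10 kb bin spans many nucleosomes and often several genes, so a value belongs to the bin and not to one of them. CHR5 itself (AT2G13370), near the outer edge of the long-arm side, had 7503 wild-type against 7689 mutant counts in the bin of its midpoint, or a fold of 0.995 (0.963 to 1.03). A 10 kb bin cannot show a small lesion, and this value neither checks nor contradicts the label. With 1 library per genotype no difference between genotypes, and no difference of that ratio between regions, could be tested, so all comparisons below describe these libraries. Positions of bins follow the deposited tables with 1 as the first base, and the labels state no genome build.

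In the wild type, the pericentromere outside the insertion had more counts per bin than the arms of the same chromosome. Its 370 bins had a median of 94.2 scaled counts, with quartiles of 69.4 and 124, against a median of 76.4 in the 1570 arm bins, a ratio of 1.23. The other 4 pericentromeres had a median of 92.6, which ran from 72.8 on chromosome 1 to 104 on chromosome 3. The 400 bins make up 3.36% of the nuclear bins and held 3.83% of the nuclear counts of the wild-type library and 3.68% of those of the mutant library. No undigested DNA was used here, so copy number and the placement of reads from repeats cannot be told apart from protection in these levels.

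The wild-type level was not symmetric about the centromere. In stretches of 500 kb from the short-arm side, the median scaled count was 66.1, 90.0 and 101 up to 3100000. The stretch that contains the insertion was at 42.6, and its 20 bins outside the insertion were at 102. On the long-arm side the medians were 123, 107, 94.3 and 103. The level was therefore highest directly beyond 3.6 Mb and lowest, apart from the insertion, at the outer edge of the short-arm side. Annotated genes were also uneven: protein-coding genes covered a mean of 19.7% of a bin on the short-arm side and 7.81% on the long-arm side, while annotated pseudogenes, which in this annotation include many remnants of transposable elements, covered 30.4% and 42.9%.

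Within the pericentromere, wild-type counts rose with pseudogene coverage. Outside the insertion, bins with under 10% of their length in pseudogenes had a median of 65.4 scaled counts, those with 10 to 50% had 93.5 and those with over 50% had 115. The rise was not particular to chromosome 2. In the same classes the other 4 pericentromeres together had medians of 57.4, 94.6 and 122. Spearman's rho of the wild-type count was 0.45 with pseudogene coverage and -0.25 with protein-coding coverage over the 370 bins. In the 1570 arm bins these correlations were 0.038 and 0.59, so the sign for protein-coding coverage was opposite. In the other 4 pericentromeres they were 0.57 and -0.36, with the same signs as here and stronger. These are descriptions across bins of 1 library, and base composition, which also acts on MNase digestion, was not used here.

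The bins with the most wild-type counts stood at the centromere position. The bin at 3620001 to 3630000, of which the protein-coding locus AT2G08986 covers 64.6%, held 67121 wild-type and 70592 mutant counts, and was the bin with rank 10 of all nuclear bins. The bin before it, at 3610001, held 35125 and 35397 counts. These 2 bins were 8.47 and 4.43 times the nuclear median of the wild type. The next 3 bins held between 20384 and 21161 wild-type counts and were covered by pseudogenes over 75.5% to 89.3% of their length (AT2G12920 and AT2G12930 at 5300001, AT2G13230 and AT2G13200 at 5470001, AT2G11310 and AT2G11300 at 4490001). In the mutant the bin at 3620001 was at a fold of 1.02 (1.01 to 1.03) and that at 3610001 at 0.978 (0.964 to 0.993). The 3 pseudogene bins were at 0.938, 0.902 and 0.926. All these bins were picked by their wild-type count, the denominator of the ratio, and this choice favours lower folds.

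**Figure D1:**
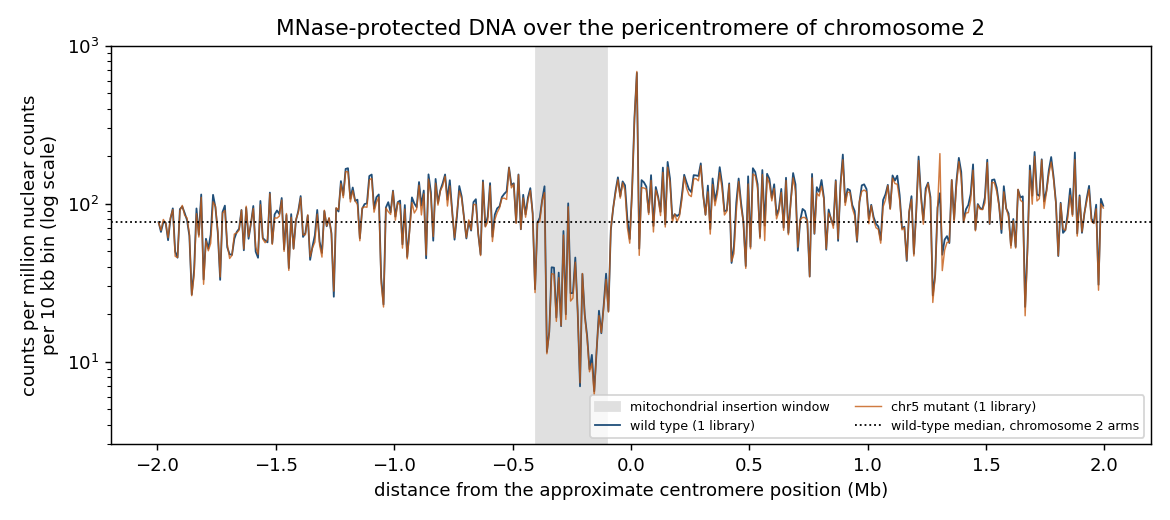
Scaled counts (per 1000000 nuclear counts) in each 10 kb bin (vertical axis, log scale) against the distance from the approximate centromere position in Mb, for the wild-type library (blue) and the chr5 mutant library (orange). The grey band is the insertion window and the dotted line the wild-type median of the chromosome 2 arms, at 76.4. Both profiles run together, drop inside the band and peak just beyond 0.

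The insertion of mitochondrial DNA was a trough of counts in both libraries. Its 30 bins had a median of 21.9 scaled counts in the wild type, 0.233 times that of the surrounding pericentromere. The fall began inside the window. The first 4 bins of the window (3200001 to 3240000) held 7504, 8133, 10491 and 12839 wild-type counts, and the 8 genes with midpoints in them are 7 pseudogenes and 1 protein-coding gene. At 3240001 the count fell to 1146, or 0.0893 times the bin before, and in the mutant from 12063 to 1149. The low counts lasted to 3510000, where they stood at 2076 and, for the mutant, 2110, and rose to 6756 and 7078 in the next bin, which holds the transporter gene ABCC13. The bin after that holds MCM5, a subunit of the replicative DNA helicase, at 9318 and 9635 counts. These 27 bins of low counts, whose bounds were chosen after the counts were seen, held a median of 2076 wild-type counts, from 646 to 10005.

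Genes were annotated in the insertion at a density unlike that around it. Of the 184 genes with their midpoint in the window, 92 are protein-coding, 49 are pseudogenes and 22 are tRNA genes. The 370 bins around it hold 265 protein-coding genes, 612 pseudogenes and 1 tRNA gene. Only 2 of the protein-coding genes in the window carry a symbol, ABCI5 (AT2G07771) and ABCI4 (AT2G07681), both named for ATP-binding cassette proteins of subfamily I, to which subunits of mitochondrial cytochrome c maturation belong. The bin of ABCI5 held 1146 wild-type and 1149 mutant counts, and that of ABCI4 held 1893 and 1844. Both bins were under the count minimum, and their intervals, 0.896 to 1.06 and 0.886 to 1.01, include a fold of 1.

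The counts of single insertion bins were uneven, and the mutant followed the wild type bin by bin. Over the 30 bins Pearson's r of the log2 counts of the libraries was 0.999. Peaks stood at 3330001, with 10005 wild-type against 9803 mutant counts, and at 3310001, with 6682 and 6492. The lowest bins were at 3440001, with 646 and 628, and at 3380001, with 694 and 752. The bins from 3410001 to 3460000 were low throughout, with wild-type counts of 1445, 890, 1098, 646 and 1169.

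**Figure D2:**
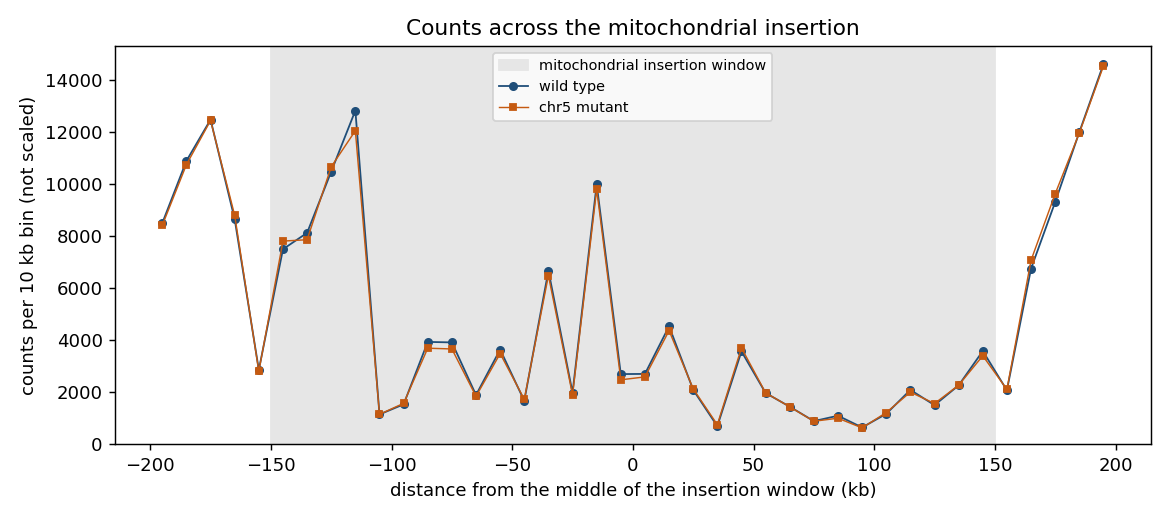
Deposited counts per 10 kb bin, not scaled, in the wild type (blue circles) and the chr5 mutant (orange squares) against the distance in kb from the middle of the insertion window (grey band). The drop lies inside the left edge of the band, where wild-type counts go from 12839 to 1146, and both libraries share the same peaks, such as the bin with 10005 and 9803 counts.

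The mitochondrial genome in the same tables showed bins of high and of low counts. Of its 37 bins, 12 held from 9382 to 23528 wild-type counts and 25 held from 25 to 2641. The 12 high bins, split from the others after the counts were seen, made up 93.0% of the mitochondrial counts of the wild type. All mitochondrial bins together came to 221866 wild-type and 222189 mutant counts, against 71458 and 69877 in the 27 low bins of the insertion. Which mitochondrial bins have a copy in the insertion was not analysed here, as no genome sequence was used, so counts in the insertion cannot be told apart from reads of organelle DNA placed there, nor the reverse. In the chloroplast genome, 5 of 16 bins held no counts. Whether reads that match several places were left out of the counts was not tested, so the trough cannot be read as a level of protection.

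Relative to the wild type, the mutant library held a smaller share of its counts in the pericentromere of chromosome 2. Summed over the 370 bins outside the insertion, 3697701 wild-type and 3666683 mutant counts gave a fold of 0.962 (0.961 to 0.964). These bins had a median log2 ratio of -0.055. Their SD was 0.077, where counting alone would give 0.023, and 303 of 370 were below 0, or 81.9%, against 38.6% of all 11735 analysed nuclear bins. Below the median ratio of all nuclear bins (0.015) lay 318 of the 370. The arms of chromosome 2 were at a median of 0.014 with an SD of 0.049, with 799 of 1570 bins below the nuclear median, and the difference in medians was -0.070, or 0.953-fold.

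The pericentromere of chromosome 2 was close to the other pericentromeres in this ratio. The other 4 together had a median of -0.053 and an SD of 0.086, a difference of -0.0025 that turned positive in 3 of the alternative settings. Chromosome 1 was at -0.040, chromosome 3 at -0.057, chromosome 4 at -0.058 and chromosome 5 at -0.065. Of the 387 analysed bins, 31 (8.01%) were lower by more than 1.1-fold and 1 was higher, against 2.65% lower and 0.81% higher over all nuclear bins. Lower by that much were 215 of 1495 (14.4%) in the other pericentromeres together and 8 of 1570 in the arms of chromosome 2. The share lower by that much was 6.29% in the pericentromere of chromosome 1, 12.8% in that of chromosome 3, 17.5% in that of chromosome 4 and 19.8% in that of chromosome 5, so chromosome 2 lay between them. Past 1.2-fold, 2 bins were lower and 1 was higher, where the shares of all nuclear bins were 0.298% and 0.0341%. Past 1.5-fold, 1 bin was higher and 0 were lower, where these shares were 0.00852% each. That higher bin, at 4900001, was the only one past 1.5-fold higher among all 11735 analysed nuclear bins, so the share of higher bins is this bin itself.

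The lower ratio reached over the whole pericentromere and was smallest at the outer edge of the short-arm side. By stretches of 500 kb from the short-arm side, the median log2 ratio was -0.020, -0.047 and -0.056, then -0.058 in the stretch with the insertion. The 20 bins of that stretch outside the insertion were at -0.044. On the long-arm side the median log2 ratio was -0.080, -0.067, -0.061 and -0.059. The sum of counts was below 1 in all 8 stretches, from a fold of 0.951 (0.947 to 0.954) at 4100001 to 4600000 to 0.987 (0.982 to 0.991) at 1600001 to 2100000. By side, without the insertion, 128 of 170 bins were below 0 on the short-arm side, at a median of -0.041, and 175 of 200 on the long-arm side, at -0.065. Protein-coding and pseudogene coverage differed between the sides as given above.

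With 81.9% of the bins outside the insertion below 0, such bins stood in long rows. The longest held 27 bins, from 4030001 to 4300000, with 298103 wild-type and 288418 mutant counts and a fold of 0.939 (0.934 to 0.944). Others ran over 26 bins from 2470001 to 2730000, at 0.946 (0.941 to 0.951), and over 24 bins from 2960001 to 3200000, right up to the insertion window, at 0.965 (0.960 to 0.970). In all, 10 rows of 10 bins or more held 187 bins, while no row above 0 was longer than 3 bins. Neighbouring bins were nevertheless only loosely alike, with a Spearman's rho of 0.27 over 368 pairs outside the insertion. At the limits of the region, the first bin inside (1600001) was at a fold of 0.994 and the one outside at 0.9995, and the last bin inside (5590001) was at 0.967 and the one outside at 0.997.

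**Figure D3:**
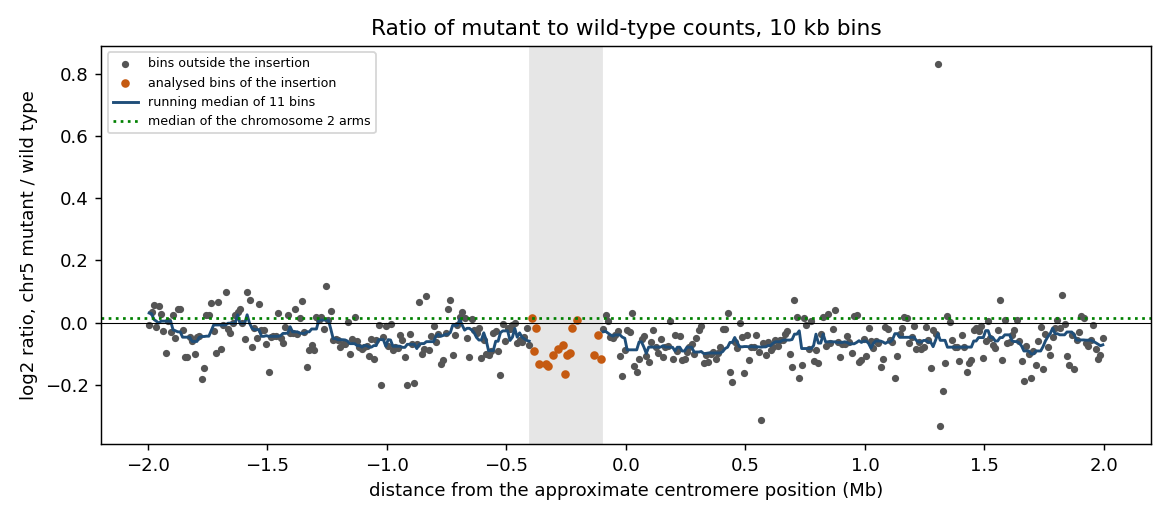
Log2 ratio of mutant to wild-type scaled counts per analysed 10 kb bin against the distance from the approximate centromere position in Mb, for bins outside the insertion (grey points, with a running median of 11 bins in blue) and the 17 analysed bins of the insertion (orange). The running median lies under the dotted median of the chromosome 2 arms (0.014) over most of the region, and 1 bin stands far above all others at 0.83.

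The ratio fell with pseudogene coverage. Outside the insertion the median log2 ratio was -0.0023 in the 67 bins with under 10% pseudogene, -0.058 in the 178 bins with 10 to 50% and -0.075 in the 125 bins with over 50%. In these classes 35, 155 and 113 bins were below 0. On the arms of chromosome 2 the same classes were at 0.016, -0.0021 and -0.045, so the pericentromeric bins were lower in each. In the other 4 pericentromeres the same classes were at 0.0077, -0.058 and -0.086, so the fall was not particular to chromosome 2. By protein-coding coverage, the 293 bins with under 25% were at -0.062, the 73 bins with 25 to 75% at -0.019 and the 4 bins with over 75% at 0.0066, against 0.0021, 0.022 and 0.0030 on the arms. Spearman's rho of the ratio was -0.37 with pseudogene coverage and 0.35 with protein-coding coverage over the 370 bins. In the other 4 pericentromeres these correlations were -0.49 and 0.44.

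**Figure D4:**
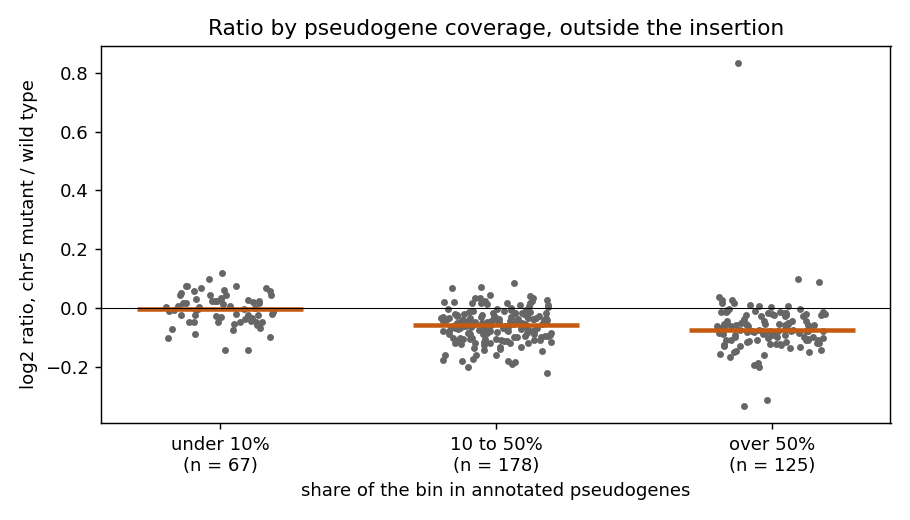
Log2 ratio of mutant to wild-type scaled counts of the 370 bins outside the insertion (points, spread sideways for legibility) in 3 classes of pseudogene coverage, with the median of each class as an orange bar. The medians go from -0.0023 through -0.058 to -0.075, and the classes overlap widely.

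The ratio also moved with the count of a bin, as it did over the whole genome, and pericentromeric bins have more counts than arm bins. Spearman's rho of the ratio with the mean scaled count was -0.32 over the 370 bins and -0.40 over the arm bins. Within 10 classes of equal size by mean scaled count over all analysed nuclear bins, the bins outside the insertion were below the arm bins of chromosome 2 in all 10, by a median of -0.053 and from -0.098 to -0.026. Against the other pericentromeres the sign varied, with chromosome 2 lower in 3 of 10 classes. In the lowest class, of 20.3 to 50.04 scaled counts, the 32 bins of chromosome 2 were at -0.044, the 161 bins of the other pericentromeres at 0.0078 and the 173 arm bins at 0.054. What part the count plays in the ratio was not tested.

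**Figure D5:**
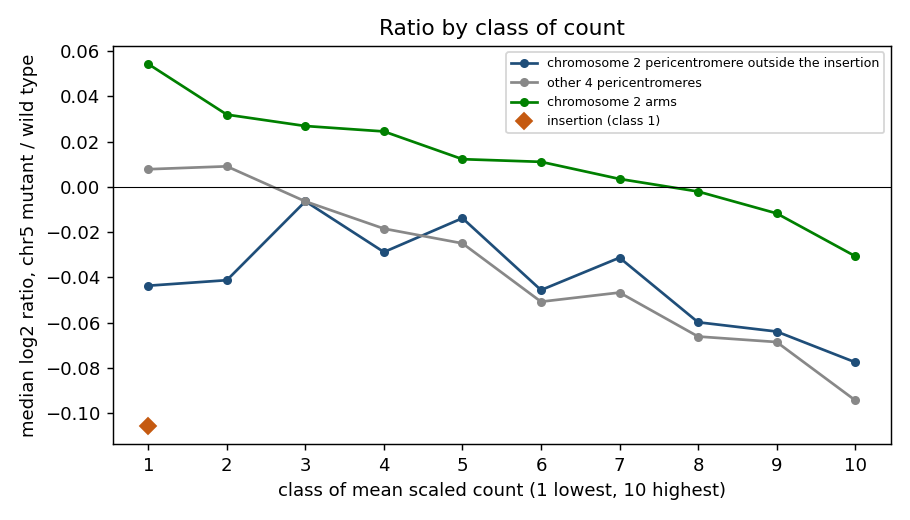
Median log2 ratio of mutant to wild type (vertical axis) in 10 classes of mean scaled count over all analysed nuclear bins, for the pericentromere of chromosome 2 outside the insertion, the other 4 pericentromeres and the arms of chromosome 2; the diamond is the insertion in class 1. The line of the pericentromere lies below that of the arms in all 10 classes, and the insertion, at -0.11, lies lowest.

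In the insertion the ratio was lower than in the surrounding bins by its median, though less so by other measures. The 17 bins that passed the count minimum had a median log2 ratio of -0.098 with an SD of 0.054, against 0.033 from counting alone, and 16 of 17 lay below the nuclear median. Over all 30 bins the median was -0.077 and 24 were below 0. The summed counts of the window, 108349 for wild type and 106191 for mutant, gave a fold of 0.951 (0.943 to 0.959), next to 0.962 around it. In bins of 50 kb, the median of the window and that of the surroundings differed by -0.00051. Only the 5 such bins of the window that passed the count minimum entered this value.

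Bins elsewhere in the genome with counts in the same range had higher median ratios. The 27 low bins of the insertion, from 6.32 to 98.2 scaled counts by their mean, had a median of -0.073 with no count minimum, and 22 of 27 were below 0. The 8864 other nuclear bins in that range were at 0.024, with 30.1% below 0, and the 849 bins of the other pericentromeres in it were at -0.024. These sets share the range but were not matched within it. The wild-type median was 20.9 scaled counts in the low bins of the insertion and 79.7 over all nuclear bins. In the lower part of the range, up to 20.3 scaled counts, 14 insertion bins were at -0.044 and 56 other nuclear bins at 0.018.

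The lowest analysed bins of the insertion were 3 that hold genes without a symbol. The bin at 3340001, which AT2G07695 covers most, had 2699 wild-type against 2479 mutant counts, or a fold of 0.891 (0.844 to 0.942). The neighbours at 3270001 and 3260001 had folds of 0.908 (0.868 to 0.9502) and 0.911 (0.871 to 0.953). On the other end stood the first bin of the window, at 1.01 (0.979 to 1.04), which holds the pseudogene AT2G07620 before the fall in counts, and the bins at 3390001 and 3370001, at 1.01 (0.961 to 1.05) and 0.989 (0.930 to 1.05). The intervals of the 3 lowest bins do not reach those of the first bin, but they are not corrected for having been picked from 17.

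Mitochondrial bins, scaled to the nuclear total, gave a fold of 0.972 (0.966 to 0.978) in sum. The 12 high bins were at 0.973 (0.968 to 0.979). Of the low bins, the 13 from 50001 to 180000 held 1840 wild-type and 2039 mutant counts, or a fold of 1.08 (1.01 to 1.15). The 12 others held 13682 and 13186, or a fold of 0.935 (0.913 to 0.958), with 11 of 12 below 1. The low mitochondrial bins thus fell on either side of 1. The last value was below that of the low bins of the insertion, at 0.949 (0.939 to 0.959), with overlapping intervals.

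The highest and the lowest ratios of the whole pericentromere lay side by side on the long-arm side. The bin at 4900001 to 4910000, of which the pseudogene AT2G12210 covers 66.7%, had 11602 wild-type against 21294 mutant counts, or a fold of 1.78 (1.74 to 1.82). The bin after it, with the pseudogene AT2G12260, had 4728 and 3865, or a fold of 0.793 (0.760 to 0.828), the lowest of the 387. The next, with the pseudogene AT2G12300, was the third lowest, at 5895 and 5210 counts and 0.858 (0.826 to 0.890), and the one after that was at 0.913 (0.881 to 0.946). Before the highest bin the ratios were ordinary for the region, at 0.975 and 0.984. The ratio thus turned from far above 1 to below it within neighbouring bins and was back at 1.02 (0.979 to 1.05) by 4940001. Summed over the first 3 of these bins, 22225 wild-type and 30369 mutant counts gave 1.33 (1.30 to 1.35). Without the highest bin, the SD of the ratio over the 370 bins was 0.062 and the median was still -0.055.

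Of the 10 lowest bins, none lay in the insertion and 6 lay on the long-arm side. All 10 had a pseudogene as the gene with the most cover, as did 282 of the 370 bins outside the insertion (76.2%). After the bin at 4910001 came 4160001 to 4170000, with the pseudogenes AT2G10630 and AT2G10640, 7233 wild-type and 5991 mutant counts and a fold of 0.804 (0.777 to 0.832). These are the 2 bins past 1.2-fold. In 9 of 10 cases the bin before and in 10 of 10 the bin after were also below 1, where 81.9% of all bins outside the insertion were. A close pair on the short-arm side, at 2680001 (AT2G06740) and 2710001 (AT2G06790), stood at 0.869 and 0.873, with 9997 and 9679 wild-type counts. The bin at 2570001 (AT2G06490) was at 0.871 and that at 4040001 (AT2G10490) at 0.876. The bin at 5260001 (AT2G12820) held few counts, 2211 and 2001, at 0.878 (0.826 to 0.934), and that at 4720001 (AT2G11770) many, 14976 and 13622, at 0.883 (0.862 to 0.904). The remaining 1 holds LHCB2.1 and is given with the genes below.

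Apart from the bin at 4900001, no bin was higher by more than 1.1-fold. The other 9 highest were at folds of 1.05 to 1.09. In 2 of the 10 highest the bin before was also above 1, and in 3 of 10 the bin after, where 67 of the 370 bins outside the insertion (18.1%) were above 0 on the log2 scale. The second highest, at 2340001 (AT2G06020), held 2563 and 2866 counts, or a fold of 1.09 (1.03 to 1.15). The pair at 2010001 (AT2G05510) and 2020001 (GRP-3, a glycine-rich protein gene) stood together at 1.07 (1.03 to 1.11) and 1.05 (1.01 to 1.096). The bin at 1920001 (AT2G05280) was at 1.07 (1.03 to 1.11) and that at 5420001 (AT2G13140) at 1.06 (1.03 to 1.101). Of the others, the bins at 4300001, 5160001 and 2860001 were all at 1.05, and that of XTH4 follows below. Among the 10 highest, 9 had fewer wild-type counts than the median bin outside the insertion. The wild-type count is the denominator of the ratio, so picking high ratios favours such bins.

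Bins of genes with a symbol had a higher median ratio than the pericentromere as a whole. Of the 56 protein-coding genes with a symbol, 45 lie on the short-arm side, and 54 of them fall in 49 bins that passed the count minimum, with a median log2 ratio of -0.023. Of these 49 bins, 14 were above the nuclear median, a larger share than the 52 of all 370 bins outside the insertion (14.1%). Over all nuclear bins that median by definition splits the bins evenly. Of the 49, 3 were lower by more than 1.1-fold and none was higher, next to 8.01% lower in the region and 2.65% over all nuclear bins. The 170 bins outside the insertion with the midpoint of a protein-coding gene were at -0.033 and the 315 with that of a pseudogene at -0.060. These bins overlap, since many hold both.

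A list of 15 genes with known roles was used for this region, and their 15 bins had a median of 0.0051, which is -0.0096 with the median nuclear bin set to 0. Of these bins, 5 were above the nuclear median, next to 14.1% of the bins outside the insertion. By definition, as many nuclear bins lie above that median as below it. Lower by more than 1.1-fold was 1 of 15, near the 8.01% of the region (2.65% over all nuclear bins), and none was higher. The lowest were the bins of the light-harvesting genes, which encode chlorophyll-binding proteins of the photosystem antenna. The bin of LHCB2.1 (AT2G05100) had 6341 wild-type against 5754 mutant counts, or a fold of 0.881 (0.850 to 0.913), and that of LHCB2.2 (AT2G05070) had 3297 and 3167, or a fold of 0.932 (0.888 to 0.979). All protein-coding genes together cover 14.9% and 27.7% of these bins, and LHCB2.1 and LHCB2.2 are close copies whose reads the counting could split. Both bins lie in a row of 10 bins below 0, from 1740001 to 1840000, at a fold of 0.937 (0.927 to 0.948). The low values are thus shared with the bins around these genes. LHCB2.2 overlaps 2 bins, with a mean log2 ratio of -0.073. PGR5, a gene of cyclic electron flow in photosynthesis that shares its bin with the autophagy gene ATG8D, was at 0.984 (0.949 to 1.02).

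Of the genes of DNA, chromatin and RNA on the list, MCM5 was at 1.004 (0.975 to 1.03). HEN2, an RNA helicase that works with the nuclear exosome, had 8170 and 8366 counts, or a fold of 0.994 (0.964 to 1.02). The telomere protein gene AtPOT1a was at 1.05 (1.01 to 1.09), and the bin of RPA1A, which encodes a subunit of the single-stranded DNA binding complex, at 0.969 (0.940 to 0.998). The intervals of MCM5 and HEN2 include 1, as does that of CHR5. Those of AtPOT1a and RPA1A do not, but these genes are not on the list and were added after their values were seen.

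Of the genes of metabolism, 3 of 6 were above the nuclear median, which by definition splits all nuclear bins evenly. OPR3, an enzyme of jasmonate synthesis, had 8882 and 9387 counts, or a fold of 1.03 (0.996 to 1.06). ACO3, an aconitase, was at 1.02 (0.992 to 1.05), MOD1, an enoyl reductase of fatty acid synthesis, at 1.01 (0.981 to 1.04), and CAS1, the cycloartenol synthase of sterol synthesis, at 1.01 (0.976 to 1.04). The lowest were the genes of the long-arm side. MGDC, a galactolipid synthase gene, was at 0.975 (0.943 to 1.01), and AGT, an aminotransferase of photorespiration next to CHR5, at 0.961 (0.932 to 0.992). The bin of XTH4, a cell wall xyloglucan-modifying enzyme, had 5806 and 6347 counts, or a fold of 1.06 (1.02 to 1.0996), and that of PAA2, here a subunit of the proteasome, was at 1.01 (0.980 to 1.04).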

How the data were processed

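Leaf chromatin of 1 wild-type and 1 chr5 library was digested with MNase before standard library construction, per the labels' protocols. BWA 0.7.5a and bedtools are named in the submitters' processing notes without their roles. The authors deposited whole-number counts per 10 kb bin, not normalized, for the nuclear chromosomes and both organelles. The sources used here state neither the counted unit (reads or fragments) nor what was done with duplicates and with reads that match several places. PCR copies, if kept, are not independent molecules.

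Counts were scaled to the nuclear total, and bins under 0.25 times the nuclear median of the mean scaled count were left out of ratios. Intervals of folds are exact conditional binomial intervals at 95%. Genes come from RefSeq's TAIR10.1 table, used for names and placement only, and a gene belongs to the bin of its midpoint. All 15 listed genes matched by locus ID. Placement was checked on the counts. Less a running median of 21 bins, Pearson's r of wild-type log2 count with pseudogene coverage in the pericentromere was 0.34 with no shift and at most 0.022 at shifts of up to 4 bins, whereas protein-coding coverage gave no such maximum there (0.024, at most 0.11 elsewhere). On the arms of chromosome 2, protein-coding coverage gave 0.53 with no shift and at most 0.044 otherwise. No sequence is printed, since none was used here.

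The members, gene lists, tests and alternatives were chosen with earlier results of these data known. Named bins are the 10 highest and 10 lowest ratios, the 5 highest wild-type counts, and the 3 highest and 3 lowest of the insertion. Named genes are the list of 15 and those with a symbol in the insertion. ABCC13, AtPOT1a, ATG8D, RPA1A, the low stretch of the insertion, other insertion bins, the mitochondrial classes and the neighbours of the highest bin were added after their values were seen. Alternatives were another scaling, organelles in the totals, no or a stricter filter, a pseudocount of 10, bins of 50 kb, summed counts, other bounds and thresholds. Scripts were tested on simulated counts. The software was Python 3.11.15, scipy 1.17.1, numpy 2.4.6, matplotlib 3.10.9 and pandas 2.3.3.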

Additional observations from a re-analysis of the deposited data

Results flagged for a closer look

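Chloroplast bins entered no comparison here, and per nuclear count they were higher in the mutant than in the wild-type library, at a fold of 1.07 (exact 95% interval 1.07 to 1.08, counting error only).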

How the results depend on the processing

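No paired analysis was possible because each genotype has 1 library, and for the same reason no replicate could be left out. Outside the insertion the median log2 ratio was -0.070 with the median nuclear bin set to 0, -0.063 in bins of 50 kb and -0.063 within 1 Mb of the centromere position. Its difference to the arms of chromosome 2 was -0.075 in bins of 50 kb, -0.064 from summed counts and -0.078 within 1 Mb. The difference to the other pericentromeres turned to 0.00059 with the filter from 0.5 to 4 times the median, to 0.0028 from summed counts and to 0.0093 within 1 Mb. The median of the insertion was -0.11 with the median bin set to 0, -0.077 with no filter, -0.085 with the stricter filter, -0.064 in bins of 50 kb, -0.078 from summed counts of the analysed bins and -0.062 with bounds 50 kb wider. Its difference to the surrounding bins, -0.042, was -0.021 with no filter, -0.029 with the stricter filter, -0.00051 in bins of 50 kb, -0.023 from summed counts and -0.0065 with wider bounds. Bins lower by over 1.1-fold numbered 31, against 2 past 1.2-fold, 0 past 1.5-fold and 0 among bins of 50 kb, and with the median bin set to 0 they numbered 45. Without the bin at 4900001, an alternative chosen after seeing the data, 0 bins were higher. For genes averaged over all bins they overlap, the medians of 3 chromatin, replication and RNA genes and of 6 metabolism genes turned, from -0.0079 to 0.0047 and from 0.015 to -0.00054, and with the median bin set to 0 that of all 15 genes turned to -0.0096. The 46 named bins and genes, some of which share a bin, stayed within their counting intervals under another scaling, organelles in the totals and a pseudocount of 10. For all of these settings this outcome was set beforehand. The scaling moved every bin by the same 0.0147, and the narrowest interval had a half-width of 0.0153. Organelles in the totals also moved every bin by the same, smaller amount. A pseudocount of 10 could hardly move bins with counts this high. The signs of MCM5, CAS1, PAA2 and the bin at 3390001 turned with the scaling. The cause of the other changes was not tested.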
